A study of Larimichthys crocea with 3 samples.

Results

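Mitochondria carry a small genome of their own that encodes subunits of the respiratory chain, and its transcripts are described here in testes of a marine teleost, the large yellow croaker Larimichthys crocea. The genes are the 10 of 27368 measured features named ND1, ND2, ND4, ND5, CYTB, COX1, COX2, COX3, ATP6 and ATP8. They were chosen by name and not by a limit on their values, although earlier results of these data were known. Every one was detected in every library. The other 3 mitochondrially encoded protein genes among the features are ND3, ND4L and ND6. Testes were dissociated after removal of blood and tunica albuginea and profiled by droplet single-cell RNA sequencing, which counts unique molecular identifiers (UMIs) at the 3′ ends of transcripts for each cell barcode. The groups were juvenile testis, adult regressed testis and adult differentiating testis, each with 1 library. The labels name no strain, genotype, treatment, age in days or number of pooled fish, and all 3 libraries share the same digestion with trypsin and collagenase. With no replicates, no test was made, and the intervals given in brackets are exact 95% intervals for counting error alone.

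Cells make most of their ATP in mitochondria by oxidative phosphorylation. ND1, ND2, ND4 and ND5 are core subunits of complex I (NADH dehydrogenase), CYTB is cytochrome b of complex III, COX1, COX2 and COX3 form the catalytic core of complex IV (cytochrome c oxidase), and ATP6 and ATP8 belong to the membrane part of complex V (ATP synthase). They are transcribed inside the mitochondrion as long precursors that are cut into single transcripts, whereas the remaining subunits come from nuclear genes and are imported. In the vertebrate testis, mitochondria change shape and number from spermatogonia to spermatids. In droplet data a high share of mitochondrial UMIs is also a widely used sign of damaged cells, and for this reason every deposited barcode was kept, with no upper limit on that share.

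The juvenile library held 4742 barcodes and 24826985 UMIs, the adult regressed library 17828 barcodes and 293009193 UMIs, and the adult differentiating library 14800 barcodes and 102809626 UMIs. The median barcode had 3118.5, 12786 and 3802.5 UMIs in that order, and no barcode had fewer than 500. Of all barcode sequences, 109 occurred in 2 or more libraries. Levels are given as CPM, the UMIs of a gene per 1000000 UMIs of its library or cluster. They are not corrected for transcript length, so each gene is compared mainly between libraries or clusters. Ranks among features and divisions of UMIs among genes refer to counted UMIs alone. The library labelled juvenile testis stood apart from the adult libraries in its markers. Its summed level of 9 oocyte markers was 11368 CPM, against 194.4 CPM in the adult regressed and 121.8 CPM in the adult differentiating library. The egg coat gene zp3c had 2245 CPM in it and 0.676 and 0.593 CPM in the adult libraries. Oocyte markers lay between 4005 and 14615 CPM in every juvenile cluster of at least 50 barcodes, and between 12.8 and 332 CPM in the clusters of the adult libraries. The 15 spermatid markers summed to 178.9 CPM in the juvenile, 302.0 CPM in the adult regressed and 1942 CPM in the adult differentiating library. The summed Sertoli and Leydig markers were also highest in the juvenile library, though not every marker was. In the same order of libraries, 10 Sertoli markers summed to 265.6, 20.1 and 16.9 CPM, and 5 Leydig markers to 15.8, 1.14 and 6.06 CPM. The most abundant Sertoli markers in the juvenile library were cldn11a, inha, gsdf and wt1, at 102.4, 66.8, 50.0 and 37.0 CPM. Highest in the adult differentiating library instead were fshr (0.967 CPM juvenile, 1.34 CPM differentiating) and cyp17a1 (0.806 and 1.07 CPM). The Sertoli sum of the juvenile library lay above that of each of its clusters of at least 50 barcodes, at most 187.3 CPM. Part of it thus came from the 113 barcodes in smaller clusters. Which cells carried these markers was otherwise not tested. The part of these differences in the mitochondrial values was not tested.

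The 10 genes took the largest share of UMIs in the adult differentiating library and the smallest in the adult regressed library. Pooled over all UMIs, the share was 0.581% (0.578% to 0.584%) in the juvenile, 0.197% (0.1966% to 0.1976%) in the adult regressed and 1.54% (1.536% to 1.541%) in the adult differentiating library. Over single barcodes, the juvenile share ran from 0% to 21.0% with a median of 0.293%. The adult regressed share ran from 0% to 34.9% with a median of 0.197%, and the adult differentiating share from 0% to 71.3% with a median of 1.52%. The middle 50% of barcodes lay between 0.136% and 0.558%, between 0.102% and 0.297%, and between 0.887% and 2.12%, respectively. These middle ranges overlapped between the juvenile and adult regressed libraries, and the adult differentiating range lay above both. In UMIs per barcode, the median count of the 10 genes was 8 in the juvenile, 21 in the adult regressed and 57 in the adult differentiating library, so the juvenile and adult regressed libraries stood in the reverse order of their shares. A lower share and fewer transcripts per cell cannot be told apart from shares alone, since the median depth of the barcodes differed between the libraries.

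**Figure D1:**
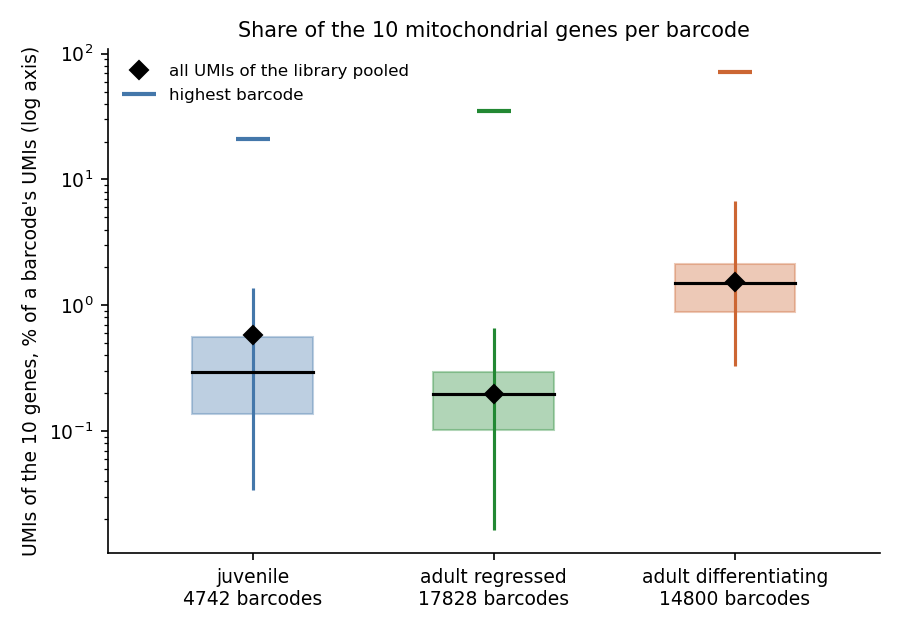
Share of the UMIs of each barcode (percent, log axis) that belonged to the 10 genes, by library; boxes show the middle 50% of barcodes with the median as a line, whiskers run from the 5th to the 95th percentile, short bars mark the highest barcode and diamonds the share over all UMIs pooled. The adult differentiating box (0.887% to 2.12%) lies above the other boxes, and the juvenile diamond (0.581%) lies above its median (0.293%).

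Because a barcode with few UMIs can miss a transcript, shares of barcodes past a limit were also read at equal depth. With each barcode thinned to 500 UMIs, 63.5% of adult differentiating barcodes had more than 1% of their UMIs in the 10 genes, against 9.36% of juvenile and 2.71% of adult regressed barcodes. Without thinning these shares were 71.4%, 8.81% and 2.36%. None of the 10 genes was seen in 2.88% of thinned adult differentiating barcodes, 28.3% of juvenile and 41.2% of adult regressed barcodes. Unthinned, these shares were 0.561%, 2.49% and 2.54%. The order of the libraries for barcodes past 1% was the same at both depths.

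Gene by gene, the adult differentiating library had the higher level in each comparison with the adult regressed library, and the complex IV genes COX1 and COX3 differed most. COX1 had 702.4 CPM in the juvenile, 132.0 CPM in the adult regressed and 2005 CPM in the adult differentiating library. COX3 had 1164, 226.9 and 3923 CPM in the same order. COX2 had 1700.5, 807.7 and 5664 CPM, and in the adult differentiating library it was the most abundant of all features (rank 1), with COX3 at rank 5 and COX1 at rank 40. In the juvenile and adult regressed libraries COX2 ranked 129 and 134. For each of these complex IV genes the adult differentiating library was highest and the adult regressed library lowest.

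Among the complex I genes, ND1 had 360.6 CPM in the juvenile, 71.5 CPM in the adult regressed and 419.8 CPM in the adult differentiating library. ND2 had 288.1, 138.5 and 673.6 CPM, and ND4 had 299.3, 153.4 and 510.0 CPM. ND5 was low, with 37.9, 18.3 and 65.1 CPM. All 4 were lowest in the adult regressed library, but the juvenile level of ND1 came close to the adult differentiating level. CYTB had 671.4, 188.5 and 1051 CPM. ATP6, which forms part of the proton channel of ATP synthase, had 580.2, 232.0 and 1066 CPM. ATP8, its small partner, had 3.99 CPM (99 UMIs), 1.89 CPM (553 UMIs) and 7.84 CPM (806 UMIs). In vertebrate mitochondrial genomes ATP8 overlaps ATP6, ND4L overlaps ND4 and ND5 lies next to ND6, and how reads shared by such neighbours were assigned is not given in the sources used here. Each of these 3 genes again followed the order adult differentiating, juvenile, adult regressed. Of the genes outside the 10, ND3 had 104.9, 29.6 and 311.9 CPM, ND4L 11.6, 4.71 and 12.1 CPM, and ND6 1.81, 0.491 and 7.49 CPM.

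**Figure D2:**
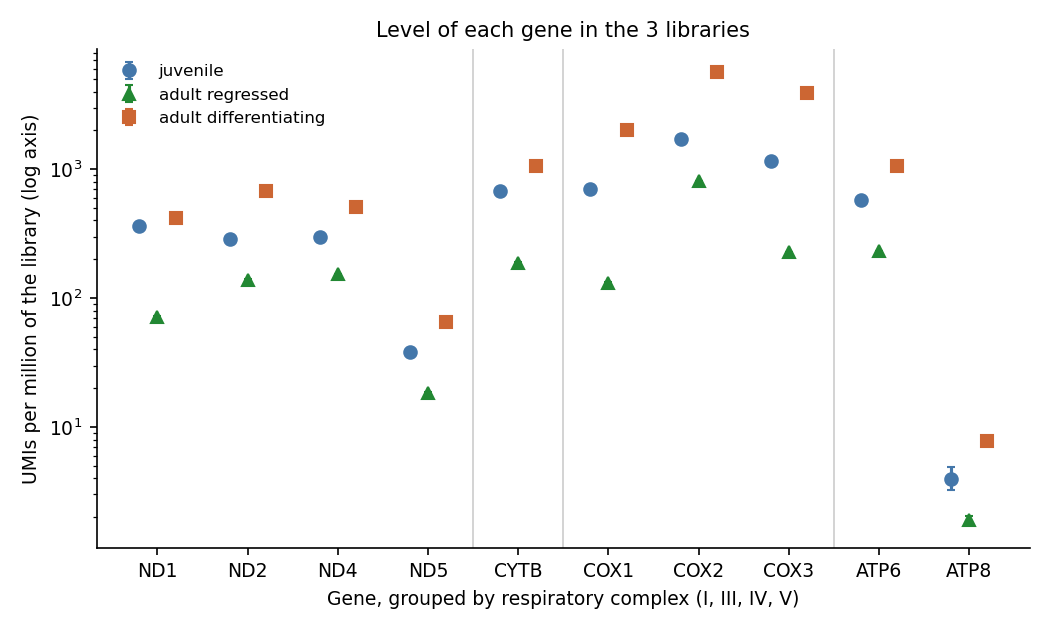
Level of each of the 10 genes in each library, in CPM of the library (log axis), grouped by respiratory complex; vertical bars are exact 95% Poisson intervals and are mostly smaller than the symbols. For every gene the adult regressed library is lowest and the adult differentiating library highest, for example COX3 at 226.9, 1164 and 3923 CPM in the adult regressed, juvenile and adult differentiating libraries.

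Between the adult differentiating and the adult regressed library, the 10 genes together differed 7.81-fold (7.78 to 7.83). COX3 was 17.3-fold (17.1 to 17.4) and COX1 15.2-fold (15.0 to 15.4) higher, followed by COX2 at 7.01-fold (6.98 to 7.05). The remaining genes lay between 3.32-fold for ND4 and 5.87-fold for ND1, and their lowest interval limit was 3.28. All 10 genes were past 2-fold higher and none lower. Of 19102 features with at least 100 UMIs in both libraries together, 20.5% were past 2-fold higher and 16.1% past 2-fold lower. The median ratio of the 10 genes was 5.21 and that of all features tested 1.03.

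Between the juvenile and the adult regressed library, the 10 genes together differed 2.95-fold (2.93 to 2.96). COX1, COX3 and ND1 were 5.32-fold (5.23 to 5.42), 5.13-fold (5.06 to 5.20) and 5.04-fold (4.92 to 5.17) higher, and CYTB 3.56-fold (3.501 to 3.625). The other 6 genes lay between 1.95-fold for ND4 and 2.50-fold for ATP6. Past 2-fold higher were 9 of 10 genes, all but ND4, and none lower, beside 20.2% of 18669 features higher and 37.7% lower. With the 50 most abundant features of each library left out of the totals, 5 of 10 genes were past 2-fold. The ratio of the 10 genes together was 1.82 among barcodes of 2000 to 8000 UMIs, a window chosen after seeing the data, and 1.80 when each barcode counted equally.

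Between the adult differentiating and the juvenile library, the 10 genes together differed 2.65-fold (2.63 to 2.66). COX3, COX2, COX1 and ND2 were past 2-fold, at 3.37-fold (3.33 to 3.41), 3.33-fold (3.30 to 3.36), 2.85-fold (2.81 to 2.90) and 2.34-fold (2.28 to 2.40). That count of 4 of 10 stood beside 43.7% of 16790 features past 2-fold higher and 20.8% lower, and is thus near the background. ND1 was 1.16-fold (1.14 to 1.19) higher, but 0.953-fold with median-of-ratios scaling in place of library totals. That scaling moved all log2 ratios by -0.29 here, by 0.21 between the juvenile and adult regressed libraries and by -0.07 between the adult libraries. When each barcode counted equally, the ratio of the 10 genes together was 4.66. The comparisons above share libraries and are not independent.

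**Figure D3:**
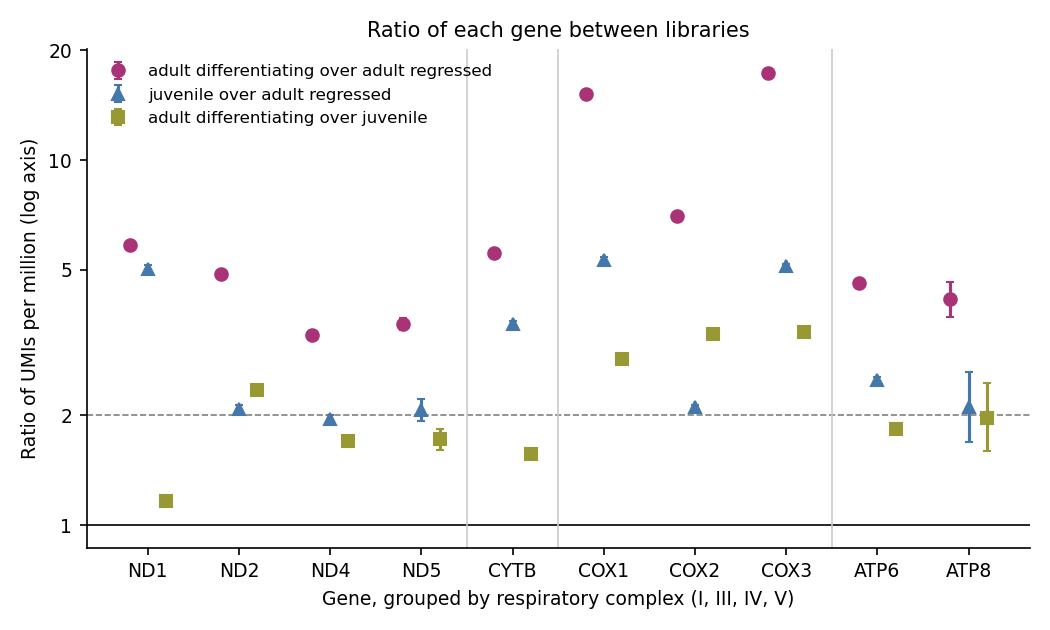
Ratio of CPM between libraries for each of the 10 genes (log axis), with exact 95% intervals as vertical bars; the solid line marks 1 and the dashed line 2. COX1 and COX3 stand highest for adult differentiating over adult regressed (15.2 and 17.3), and ND1 stands lowest for adult differentiating over juvenile (1.16).

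The libraries also differed in how the UMIs were divided among the 10 genes, a measure that does not depend on the library total. Complex IV genes took 61.4% (61.2% to 61.7%) of these UMIs in the juvenile, 59.2% (59.1% to 59.3%) in the adult regressed and 75.3% (75.28% to 75.41%) in the adult differentiating library. Complex I genes took 17.0%, 19.4% and 10.8%, CYTB 11.6%, 9.56% and 6.83%, and complex V genes 10.1%, 11.9% and 6.98%. The adult libraries differed most in COX3, which took 11.5% in the adult regressed and 25.5% in the adult differentiating library, and in COX1, with 6.70% and 13.03%. COX2 took 41.0% and 36.8%, the reverse order. In the juvenile library COX1, COX2 and COX3 took 12.1%, 29.3% and 20.0%. ND1 took 6.21% in the juvenile, 3.63% in the adult regressed and 2.73% in the adult differentiating library, whereas ND4 took 5.15%, 7.78% and 3.32%.

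Barcodes with very high shares made up a small part of each library and were shallow in both adult libraries. In the adult differentiating library, 193 of 14800 barcodes (1.30%) were past 20%, with a median of 693 UMIs and 424 detected genes, and they held 3.35% of the library's UMIs of the 10 genes. A further 749 barcodes lay between 5% and 20%, with a median of 838 UMIs, and held 5.84%. In the adult regressed library 43 barcodes were past 5%. The 6 of them past 20% had a median of 596 UMIs and the other 37 a median of 649 UMIs, against 12805 UMIs in the remaining barcodes. In the juvenile library 34 barcodes were past 5%, and the 33 of them at 20% or less had a median of 3790 UMIs and held 12.5% of the UMIs of the 10 genes. Within the adult differentiating library, the split of these UMIs among the genes differed in part between barcodes past 20% and those at 5% or below. COX2 took 39.7% and 36.6% in that order, COX3 26.4% and 25.4%, and COX1 10.0% and 13.3%. Whether these barcodes are damaged cells was not tested.

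By depth, the adult differentiating share was 7.25% in barcodes of 500 to 1000 UMIs, 2.75% at 1000 to 2000, and between 1.27% and 1.80% in all deeper bins. The adult regressed share was 1.27% in the shallowest bin, 0.439% in the next, and from 0.303% down to 0.165% in deeper bins. The juvenile share was 0.458% in the shallowest bin and highest, at 0.850%, between 8000 and 16000 UMIs. In each depth bin the adult differentiating library had the highest share and, from 1000 UMIs up, the adult regressed library the lowest. Between 500 and 1000 UMIs the juvenile library was lowest.

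Barcodes were then grouped by clustering each library on its own, with the mitochondrial genes, their nuclear partners and ribosomal protein genes kept out, so that the 10 genes took no part in defining the clusters. Clusters were named "-like" only from marker lists, relative to the other clusters of the same library, and most of them stayed unnamed. In the adult differentiating library, clusters 1 and 5 (4303 barcodes) were spermatocytes-like, with genes of meiotic recombination such as dmc1 and meiob leading cluster 1. Clusters 4, 6, 7, 10 and 11 (5287 barcodes) were spermatids-like. Cluster 4 was the weakest of these names, with 4 of 15 spermatid markers raised and 12307 CPM of spermatocyte markers, close to the 12825 and 13398 CPM of clusters 1 and 5. Unnamed were cluster 3, led by the replication genes mcm3, mcm4 and mcm6, cluster 2, led by the mitosis genes cenpa, kif2c and plk1, cluster 8, and cluster 9, which mixed markers of several somatic types with 300.7 CPM of undifferentiated spermatogonia markers. With each library clustered on its own, no cluster took the name of undifferentiated or differentiating spermatogonia. With the libraries clustered together, 334 adult differentiating barcodes formed an undifferentiated spermatogonia-like cluster, in which the share of the 10 genes was 0.825% (0.819% to 0.830%) with a median of 0.703%. How many of these barcodes belong to the mixed cluster 9 was not examined, so this is not a separate value for a germ cell stage.

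Within the adult differentiating testis, the 10 genes were lower in spermatids-like than in spermatocytes-like clusters. Their share was 2.02% (2.01% to 2.02%) with a barcode median of 1.87% in spermatocytes-like clusters, and 1.00% (0.9997% to 1.007%) with a median of 0.815% in spermatids-like clusters. By cluster, spermatocytes-like clusters 1 and 5 had 1.94% and 2.09%. The replication-gene cluster 3 had 2.05%, the mitosis-gene cluster 2 had 1.73% and cluster 8 had 1.73%. Among spermatids-like clusters the share was 1.22% in cluster 4, 1.00% in cluster 6, 1.25% in cluster 7, 0.584% in cluster 10 and 0.570% in cluster 11. The mixed cluster 9 had 0.912%. No spermatids-like cluster reached the lowest value of the spermatocytes-like clusters or of clusters 2, 3 and 8. The lowest values were in the clusters with the highest spermatid marker levels, cluster 11 (6106 CPM) and cluster 10 (7645 CPM). Cluster 7 came close to these in spermatid markers (5748 CPM) but had the highest pooled share of the spermatids-like clusters. Its barcode median was 0.782%. The share thus did not fall steadily with spermatid markers. The interquartile ranges of single barcodes, 0.511% to 1.29% and 1.48% to 2.42%, did not overlap between the named classes.

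Depth and doublets moved with these clusters in part. Of the barcodes of cluster 6, 36.7% were among the highest doublet scores of the library, and of those of cluster 7, 24.1%. In clusters 1 and 5 these parts were 8.15% and 11.6%. Without such barcodes the spermatids-like share was 0.888% and the spermatocytes-like share 2.08%. Cluster 3 held 447 of the 942 barcodes past 5%. Without cluster 4 the spermatids-like share over all depths was 0.875%. Among barcodes of 2000 to 8000 UMIs, the spermatids-like and spermatocytes-like shares were 0.965% and 1.97%. In that window clusters 1, 5, 2, 3 and 8 had 1.95%, 1.99%, 1.99%, 1.92% and 1.86%. The order of these clusters thus depended on depth. A reading with no clusters at all, added after seeing the data, divided the adult differentiating barcodes of at least 1000 UMIs into 5 equal groups by their share of spermatid markers. The share of the 10 genes was 1.495%, 1.79%, 1.83%, 1.36% and 0.717% from the lowest to the highest group. By spermatocyte markers the same division gave 1.34%, 1.62%, 1.31%, 1.49% and 1.70%, with no steady order.

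All 10 genes had lower levels in spermatids-like than in spermatocytes-like clusters, and the complex IV genes differed least. COX1 had 2692 CPM in spermatocytes-like and 1588 CPM in spermatids-like clusters, a ratio of 0.590 (0.583 to 0.597). COX2 had 7715 and 4182 CPM (ratio 0.542), and COX3 5195 and 2611 CPM (ratio 0.503). CYTB had 1524 and 583.0 CPM (ratio 0.382), and ATP6 1296 and 436.5 CPM (ratio 0.337). ND1, ND2, ND4 and ND5 had ratios of 0.377, 0.333, 0.399 and 0.348, with 706.6 and 235.1 CPM for ND2. ATP8 was seen with 199 and 72 UMIs, a ratio of 0.249 (0.187 to 0.328). Past 2-fold lower were 7 of 10 genes, all but the COX genes, and none was higher, beside 36.9% of 11922 features past 2-fold lower and 16.2% past 2-fold higher. The median ratio was 0.380 for the 10 genes, 0.626 for 76 nuclear respiratory features and 0.683 for all features tested. Of these 76, 26 were past 2-fold lower and 1 higher, and their median ratio was 0.648 in complex I, 1.11 in complex II, 0.439 in complex III, 0.662 in complex IV and 0.518 in complex V.

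The division of UMIs among the genes also differed between unnamed clusters 2, 3 and 8, spermatocytes-like clusters and spermatids-like clusters. No order of stages among these sets was tested. Complex I genes took 14.1% of the UMIs of the 10 genes in cluster 2, 12.5% in cluster 3 and 12.96% in cluster 8. They took 8.45% and 8.69% in spermatocytes-like clusters 1 and 5. In spermatids-like clusters they took 5.63% (cluster 4), 7.36% (cluster 6), 7.99% (cluster 7), 4.75% (cluster 10) and 4.59% (cluster 11). Complex IV genes took 71.1% to 73.5% in clusters 2, 3 and 8, 77.3% and 77.5% in clusters 1 and 5, and 80.1% to 87.8% in spermatids-like clusters. These ranges did not overlap between the 3 sets of clusters for either complex. The mixed cluster 9 had the highest complex I share, 18.0%, and the lowest complex IV share, 64.3%. Among single genes, COX1 ran from 10.8% in cluster 3 to 18.8% in cluster 10, COX2 from 28.3% in cluster 9 to 43.1% in cluster 11, ND2 from 7.64% down to 1.70% and ATP6 from 9.78% down to 2.90%. COX3 varied least among the COX genes as a ratio, between 21.4% and 26.4%.

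**Figure D4:**
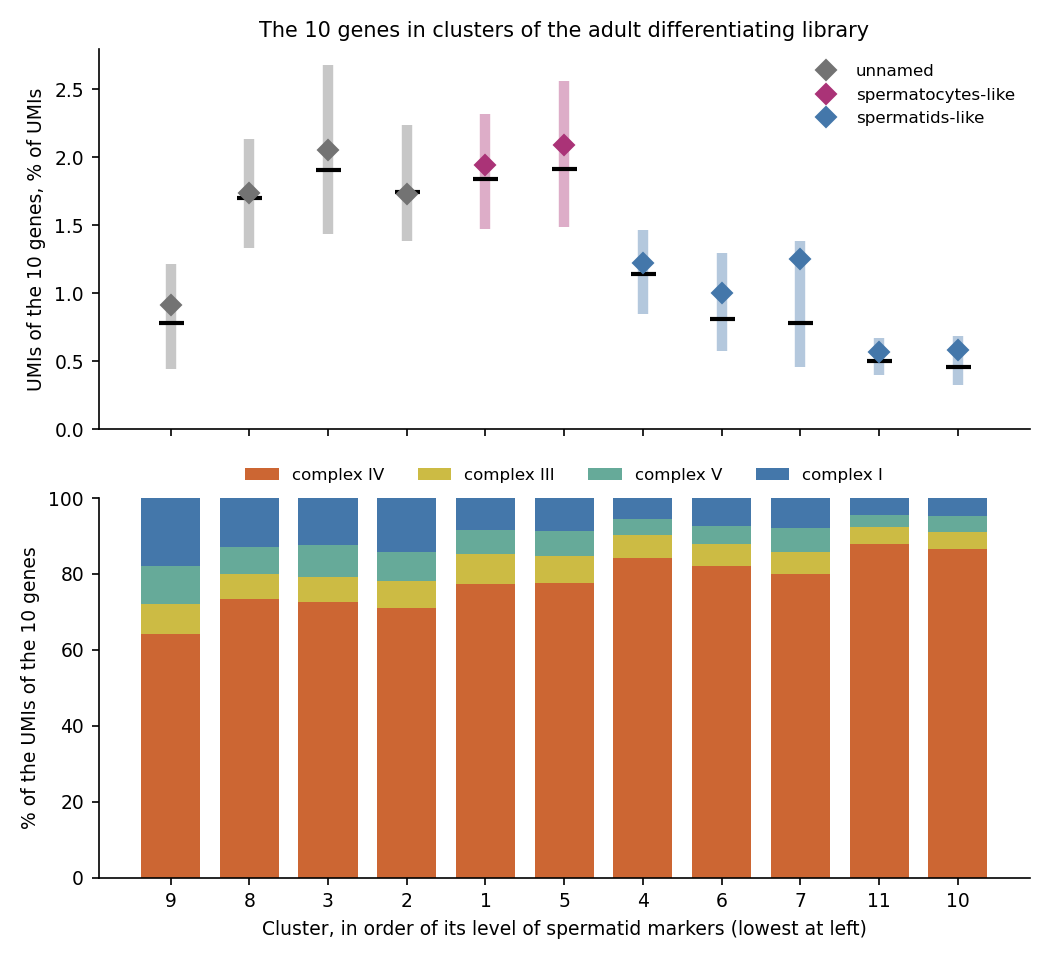
The 10 genes in the 11 clusters of the adult differentiating library, ordered by their level of spermatid markers; above, share of UMIs in percent (diamonds pooled over the cluster, black bars the barcode median, shaded bars the middle 50% of barcodes); below, division of the UMIs of the 10 genes among respiratory complexes in percent. Spermatids-like clusters lie at 0.570% to 1.25% and spermatocytes-like clusters at 1.94% and 2.09%, and the complex I part is 4.59% to 7.99% against 8.45% and 8.69%.

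Across these 11 clusters the genes moved together. The correlation of log2 levels (10 CPM added) of 1 gene with the sum of the other 9 lay between 0.860 for ND2 and 0.988 for COX3. These values are a description over clusters that share 1 library and its denominators. The spread between clusters was wide for complex I and V and narrow for COX1: ND2 had 1036 CPM in cluster 3 and 96.6 CPM in cluster 11, ATP6 1685 and 165.3 CPM in the same clusters, and COX1 2730 CPM in cluster 5 and 1066 CPM in cluster 11. The highest level was thus 10.7-fold, 10.2-fold and 2.56-fold above the lowest.

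In the adult regressed library, 12 of 14 clusters had a share between 0.185% and 0.232%, and 1 cluster lay above and 1 below that range. Among the 12 were spermatocytes-like cluster 7 with 0.201% (1554 barcodes) and Sertoli-like cluster 14 with 0.190% (262 barcodes). Doublet scores were among the library's highest for 63.0% of the barcodes of cluster 10, 30.1% of cluster 8, 20.6% of cluster 14 and 14.5% of cluster 7. Without such barcodes cluster 7 had 0.203% and cluster 14 had 0.175%. The name of cluster 7 rested on 4 of 17 raised markers. Its spermatocyte markers summed to 3681 CPM, close to the 3392 CPM of unnamed cluster 9. It also had the library's highest level of differentiating spermatogonia markers, 970.1 CPM. Lymphocyte-like cluster 13 had 0.373% (0.344% to 0.405%) over 79 shallow barcodes, with a median depth of 1436 UMIs and a median share of 0.329%. All adult regressed barcodes of 1000 to 2000 UMIs had a pooled share of 0.439% and a median of 0.268%. The place of cluster 13 above the range was thus not separated from its shallow depth. Cluster 5, singled out after its value was seen, had 0.0428% (0.0419% to 0.0438%) over 671 barcodes and a barcode median of 0.0268%. It stayed unnamed and was led, among others, by hsbp1, gapdhs (a glycolytic enzyme of sperm in mammals), pih1d1, atp6v0e1 and ndufv2. Its barcodes were deep, with a median of 22384 UMIs. In the window of 16000 to 32000 UMIs its share was 0.0430% over 271 barcodes, against 0.197% for all 3795 barcodes of the window.

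Each of the 10 genes was lower in adult regressed cluster 5 than in the rest of its library. COX2 had 183.0 CPM there and 849.9 CPM elsewhere (ratio 0.215), COX1 23.7 and 139.3 CPM (0.170), ND2 24.8 and 146.2 CPM (0.169), and ATP6 40.1 and 245.0 CPM (0.164). CYTB differed least, with 63.7 and 196.9 CPM (0.324). ATP8 had only 4 UMIs, a ratio of 0.108 (0.0293 to 0.278). All 10 were past 2-fold lower, but so were 51.8% of 17878 features, whose median ratio was 0.485 against 0.175 for the 10 genes. Nuclear respiratory genes did not share this, at 34335 CPM in the cluster and 24863 CPM in the rest, with 2 of 80 past 2-fold lower and 2 higher.

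In the juvenile library, 10 unnamed clusters made up 3983 barcodes with a pooled share of 0.405% and a range of 0.313% to 0.552%. Macrophage-like cluster 1, a name that rested on 3 raised markers of 9, the complement genes c1qa, c1qb and c1qc being the most abundant of that list, had 0.681% (0.675% to 0.687%) and a barcode median of 0.549%. Its 488 barcodes were deep (median 15353.5 UMIs) and held 36.8% of the library's UMIs of the 10 genes. None of its leading genes was a listed macrophage marker. Cluster 1 also had the highest Sertoli and Leydig marker sums of the juvenile clusters of at least 50 barcodes, 187.3 and 42.4 CPM. The Sertoli sum of the whole library was higher, 265.6 CPM. The 113 barcodes in smaller clusters, whose shares are not given here, thus had a higher Sertoli sum than cluster 1. At Leiden resolution 2 the macrophage-like name was left to 197 barcodes (0.772%), and 166 barcodes were Sertoli-like (0.619%). Whether cluster 1 mixes somatic cell types was not tested. Erythroid-like cluster 15 (73 barcodes) had 0.575% with a median of 0.205%. Spermatocytes-like cluster 8 had the highest pooled share, 1.45% (1.43% to 1.47%), but a median of 0.684%, and 10 of its 85 barcodes were past 5%. These 85 barcodes held 17.9% of the library's UMIs of the 10 genes. Of the 10 genes, the 9 with at least 100 UMIs were all past 2-fold higher in cluster 8 than in the rest of the library, beside 33.2% of 11347 features. The ratios ran from 2.40 for COX2 to 6.12 for ND5. Complex I genes took 22.2% of the UMIs of the 10 genes, more than in any other juvenile cluster of at least 50 barcodes. Cluster 8 was singled out after its value was seen. Its name rested on 8 of 17 raised spermatocyte markers, which summed to 2581 CPM beside 4005 CPM of oocyte markers.

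With each library clustered on its own, every library had spermatocytes-like clusters, and their values are set side by side. Their shares were 1.45% in the juvenile, 0.201% in the adult regressed and 2.02% in the adult differentiating library, with barcode medians of 0.684%, 0.191% and 1.87%. Their spermatocyte marker levels were unlike. They were 2581 CPM in the juvenile cluster, 3681 CPM in the adult regressed cluster and 12825 and 13398 CPM in the adult differentiating clusters. In the juvenile cluster the oocyte markers, at 4005 CPM, stood above the spermatocyte markers. With the libraries clustered together, the spermatocytes-like name was left in the adult differentiating library alone (9725 barcodes, 1.91%). In that clustering 4664 juvenile barcodes were oocyte-like, with a share of 0.570%, and 17372 adult regressed barcodes stayed unnamed, with 0.197%. The names are relative within each library and were rebuilt here, so that a library difference and a stage difference cannot be told apart in this comparison. The adult regressed share was the lowest whether read over the whole library or over these clusters.

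The nuclear partners of the 10 genes did not follow them. The list of 80 nuclear respiratory features held 39 of complex I, 4 of II, 10 of III, 16 of IV and 11 of V. It summed to 26456 CPM in the juvenile, 25463 CPM in the adult regressed and 20967 CPM in the adult differentiating library. The adult differentiating library was thus lowest for the sum of the partners and highest for the 10 genes. By complex, it was lowest for III, IV and V, with complex V at 8884, 6493 and 4124 CPM in that order of libraries. Complex I, at 7666, 9982 and 8168 CPM, and complex II, at 448, 691 and 646 CPM, were lowest in the juvenile library. Per UMI of the nuclear list there were 0.220 (0.218 to 0.221) UMIs of the 10 genes in the juvenile, 0.0774 (0.0772 to 0.0776) in the adult regressed and 0.734 (0.732 to 0.735) in the adult differentiating library. Between the adult libraries, 3 of 80 features were past 2-fold higher in the differentiating one and 6 lower, beside the background of 20.5% and 16.1%, with a median ratio of 0.810. Between the juvenile and adult regressed libraries 9 were higher and 10 lower (11.25% and 12.5% of the list), beside 20.2% and 37.7% of all features. Between the adult differentiating and juvenile libraries 7 were higher and 14 lower (8.75% and 17.5%), beside 43.7% and 20.8%. The features with the highest ratios between the adult libraries were cox6b1 (2.54), ndufs1 (2.13) and ndufb1 (2.05). Those with the lowest were atp5mc3a (0.4496), ndufa6 (0.431) and cox4i2 (0.406). The feature named ndufs1, a catalytic subunit of complex I, had 19.0 CPM in the adult regressed and 40.3 CPM in the adult differentiating library. A LOC feature with the same symbol had 38.5 and 51.8 CPM, and reads of such copies may be divided between them.

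A list of 29 nuclear genes for mitochondrial transcription, RNA processing and translation summed to 1145 CPM in the juvenile, 1045 CPM in the adult regressed and 829.6 CPM in the adult differentiating library. Between the adult libraries 1 of these 29 was past 2-fold higher and 2 lower in the differentiating one, with a median ratio of 0.677. The background for this pair was 20.5% higher and 16.1% lower. Between the juvenile and adult regressed libraries 1 of 29 was higher and 7 lower (3.45% and 24.1%), beside 20.2% and 37.7% of all features. Between the adult differentiating and juvenile libraries 6 were higher and 9 lower (20.7% and 31.0%), beside 43.7% and 20.8%. Immediate early and stress genes, which can rise with handling, moved the other way from the 10 genes, with 1716 CPM in the juvenile, 3311 CPM in the adult regressed and 596.8 CPM in the adult differentiating library over 23 features. Their part in the mitochondrial values was not tested.

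By cluster, the 10 genes and their nuclear partners ran together in the adult differentiating library only as a description over few points. The correlation of their log2 levels was 0.873 over 11 clusters, and 0.781 without the clusters of lowest and highest share. In the adult regressed library it was -0.640 over 14 clusters and -0.037 without clusters 5 and 13, and so rested on those clusters. In the juvenile library it was -0.139 over 13 clusters. The nuclear list was lowest in lymphocyte-like cluster 13 (11770 CPM) and highest in cluster 5 (34335 CPM) of the adult regressed library, the reverse of the order of the 10 genes there. The depth of these clusters differed, with medians of 1436 UMIs in cluster 13 and 22384 UMIs in cluster 5. Clusters of 1 library share its preparation, and both measures share a denominator.

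**Figure D5:**
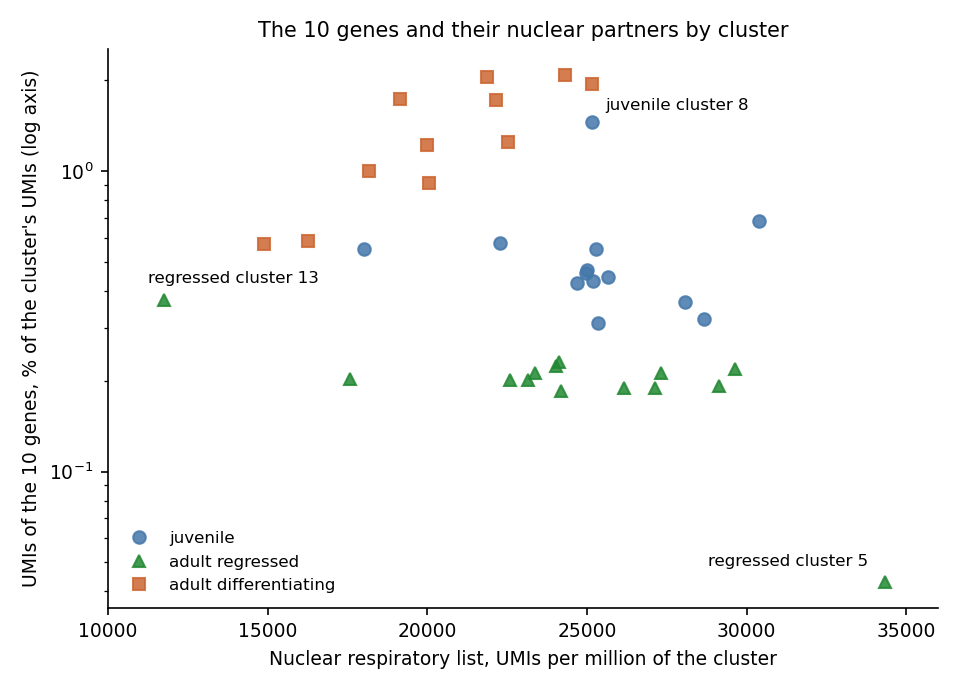
Share of UMIs in the 10 genes (percent, log axis) against the level of the 80 nuclear respiratory features (CPM), 1 point per cluster of at least 50 barcodes, by library. Adult differentiating clusters span nuclear levels of 14886 to 25168 CPM with shares of 0.570% to 2.09%, and adult regressed cluster 5 combines the highest nuclear level (34335 CPM) with the lowest share (0.0428%).

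Of 2844 features with at least 1000 UMIs in each library, the 5 whose level followed the 10 genes most closely across clusters were kpna4 (a nuclear import receptor), cd164, ttf1, ppp2r5a (a regulatory subunit of protein phosphatase 2A) and polr2a (the largest subunit of RNA polymerase II). Their mean correlation over the 3 libraries, with 13, 14 and 11 clusters, was 0.769, 0.746, 0.738, 0.723 and 0.719. Single libraries gave values as low as 0.468 (ttf1) and 0.568 (polr2a) in the juvenile and 0.575 (cd164) in the adult differentiating library. The most negative mean of a feature was -0.785, larger in size than the mean of any of these 5. None of the 5 is encoded in the mitochondrion, and likeness of pattern is the only property by which they were chosen.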

How the data were processed

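The authors deposited raw UMI counts per feature and barcode for 3 libraries. Per the file headers the software that wrote the deposited counts was Cell Ranger 5.0.0, while the submitters' processing notes name Cell Ranger 3.1.0 and STAR. The genome build, the annotation, the treatment of reads shared by neighbouring genes and the rule for calling cells are not given in the sources used here. No coordinates or sequences are therefore printed.

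Every deposited barcode was used, with no filter on cells. UMIs were summed per library or cluster and divided by all UMIs. Shares carry exact Clopper-Pearson intervals, levels exact Poisson intervals and ratios exact conditional binomial intervals, all at the 95% level. UMIs of 1 library share their preparation, so the intervals cover counting error only. With 1 library per group no p-value was computed, and ratios past 2-fold were set beside all features with at least 100 UMIs in the pair. Ratios, intervals and thinning were tested on simulated data. A LOC number took its symbol from the table of assembly L_crocea_2.0 (15971 of 15972 found, 6125 with a symbol).

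Each library was clustered with scanpy 1.11.5 and igraph 0.11.9 (2000 variable genes, 30 principal components, 20 neighbours, Leiden resolution 1). A cluster took the class with the highest mean marker level relative to the library's other clusters. At least 3 markers had to be raised 2-fold and no other class could hold more of the 10 leading genes. A class with another within 0.25 log2 and no own marker leading gave no name. This rule was set after clusters had been seen, and marker genes took part in clustering. Doublets were kept in the main values and removed at 0.8% per 1000 barcodes as an alternative (180 juvenile, 2543 adult regressed and 1752 adult differentiating barcodes). UMIs from free RNA were not separated.

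The 10 genes and all lists were chosen with earlier results of these data known. Named in the text are the 10 genes, the other 3 mitochondrial ones once, the 3 highest and 3 lowest nuclear respiratory features between the adult libraries with at least 100 UMIs in each library, and the 5 features most like the 10 genes. Leading genes, markers and single clusters named beyond this were chosen after their values were seen.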

Additional observations from a re-analysis of the deposited data

How the results depend on the processing

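No paired analysis was possible because each group has 1 library, and for the same reason leaving out a library in turn was not run. Preparation, season, fish and library therefore cannot be told apart, and the depth of the barcodes differed between the libraries. The window of 2000 to 8000 UMIs, the removal of cluster 4 and the division by marker levels were chosen after seeing the data. The order of the 3 library shares was the same as means over barcodes, without doublets, with all 13 genes, with the limit of 20% and with the minimum of 1000 UMIs and 300 genes, but among barcodes of 500 to 1000 UMIs the juvenile share (0.458%) was below the adult regressed one (1.27%). The spermatids-like share was the lower one under each alternative listed for it at the end, which do not include that minimum. The causes of the changes in value were not tested.

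The juvenile, adult regressed and adult differentiating shares were 0.504%, 0.280% and 2.35% as means over barcodes, 0.589%, 0.192% and 1.55% without doublets, and 0.593%, 0.201% and 1.57% with all 13 mitochondrial genes. Barcodes of at most 20% gave 0.569% in the juvenile and 1.49% in the adult differentiating library, and at least 1000 UMIs and 300 genes gave 0.195% in the adult regressed and 1.48% in the adult differentiating library. Adult differentiating over adult regressed was 7.57 with that minimum, 7.56 with the limit of 20%, 8.08 without doublets, 8.39 as means over barcodes, 7.84 with all 13 genes, 6.57 without the 50 most abundant features, 7.42 with median-of-ratios scaling and 5.93 in the window. Juvenile over adult regressed was 2.98, 2.89, 3.07 and 1.80 under the first 4 of these, 2.73 without the 50 features, 3.42 with scaling and 1.82 in the window. Adult differentiating over juvenile was 2.54, 2.62, 2.63, 4.66, 2.41, 2.17 and 3.26 in the same order.

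Of the 10 genes, 5 were past 2-fold higher for juvenile over adult regressed without the 50 features, and 4 past 3-fold. For adult differentiating over juvenile 9 were past 1.5-fold and 2 past 3-fold, and ND1 turned to 0.953 with median-of-ratios scaling. That scaling put 10 nuclear respiratory features past 2-fold lower between the adult libraries, 5 lower for juvenile over adult regressed and 3 higher for adult differentiating over juvenile. It turned the list's median log2 ratio for juvenile over adult regressed from -0.04 to 0.17, and made that for adult differentiating over juvenile -0.36. Complex IV in the adult differentiating library was 75.2% with the minimum and without doublets.

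Thinned to 1000 UMIs, barcodes with none of the 10 genes were 14.1%, 22.9% and 0.594% in the juvenile, adult regressed and adult differentiating libraries, against 2.49%, 2.54% and 0.561% unthinned. Past 1% were 1.56% of adult regressed and 66.6% of adult differentiating barcodes, against 2.36% and 71.4% unthinned. Past 5% were 0.0408% and 2.44%, against 0.241% and 6.36% unthinned. Barcodes below 1000 UMIs, 194 juvenile, 665 adult regressed and 1502 adult differentiating, were left out of these thinned values but not of the unthinned ones. Thinned to 500 UMIs, with no barcode left out, 0.247% of adult regressed and 6.35% of adult differentiating barcodes were past 5%. The spermatocytes-like share, the spermatids-like share and their ratio were 1.95%, 0.9995% and 0.513 with the limit of 20%, 2.08%, 0.888% and 0.426 without doublets, and 2.72%, 1.13% and 0.416 as means over barcodes. They were 2.06%, 1.01% and 0.494 with all 13 genes, 1.96%, 0.822% and 0.419 at Leiden resolution 2, 1.91%, 0.848% and 0.445 with the libraries clustered together, and 1.97%, 0.965% and 0.490 in the window. The other clusterings compare unlike sets of barcodes. Spermatocytes-like were 4303 barcodes in the main values, 5567 at resolution 2 and 9725 with the libraries together. Spermatids-like were 5287, 4080 and 3156 in that order. The shares were 1.999% and 0.996% at resolution 0.5. In the main clustering at all depths, without cluster 4, the spermatids-like share was 0.875% and the ratio 0.434.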
